A study of Mus musculus with 14 samples.

Results

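The PGC-1 coactivators, the PPAR receptors, their partner RXRα, the estrogen-related receptors and the PPAR target gene Pdk4 were followed through chromatin immunoprecipitation data from mouse heart. The 10 genes were chosen by name as regulators of cardiac energy metabolism, not by a threshold on these values, and stand against 21887 protein-coding genes in all. At each gene, the regions of the authors' deposited tables that overlap the gene body plus 10000 bp on either side were taken (build mm10). This gave 422 of 1186054 regions, with 217 of 388424 for the histone methyltransferase G9a, 124 of 245088 for its product H3K9me2, and 81 of 552542 for the Polycomb mark H3K27me3.

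The cells were cardiomyocyte-enriched populations of C57BL/6J mice, either 1 week after transverse aortic constriction (TAC), a surgical narrowing of the aorta that loads the left ventricle, or from Sham hearts, whose treatment label reads "No treatment". Each of the 3 antibodies had 2 biological replicates per condition, which with 1 input library per condition made 14 libraries. The labels give no sex, age or number of mice per library. The question is where G9a binding and both marks change under load.

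PGC-1α and PGC-1β carry no DNA-binding domain: they dock on nuclear receptors and raise transcription of genes for fat burning and mitochondrial respiration. PPARs bind DNA as heterodimers with RXR and respond to fatty acids, whereas the estrogen-related receptors have no known natural hormone and bind related sites. The adult heart draws most of its energy from fatty acids, and expression of these regulators falls in many models of pressure overload. G9a and H3K9me2, and separately H3K27me3, are associated with silenced chromatin.

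Each listed region carries 4 whole-number values, a first and a second pair of libraries, and the authors' p. No source used here says which pair is TAC and which Sham, so a difference is given as higher in the second or in the first pair, and log2 differences are second over first, computed from the pair means plus a pseudocount of 1. If the order of the pairs differed between the tables, statements across antibodies would turn round with it. The tables list differential regions only (largest deposited p 0.01), so a gene without a region had no listed difference, whatever its level of the mark. A region is called separated when both values of the higher pair lie above both of the other pair. In bulk chromatin, fewer cells of a type and less signal per cell cannot be told apart.

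The cardiomyocyte markers were Myh6, Myl2, Tnnt2, Tnni3, Actn2 and Ryr2. Of these, 2 of 6 had an H3K27me3 region higher in the second pair and 3 of 6 one higher in the first pair. Of all protein-coding genes, 69.7% and 79.9% had one. All 4 endothelial markers and all 4 smooth muscle and pericyte markers had H3K27me3 regions in both directions, as did all 4 fibroblast markers, and 3 of 4 leukocyte markers had one in each direction. For G9a 6 of 6 cardiomyocyte markers had a region higher in the second pair, with 4 of 6 for the first, and for H3K9me2 3 and 2 of 6. Each of the other 4 marker lists had G9a regions at 3 or 4 of 4 genes and H3K9me2 regions at 2 to 4 of 4, in either direction. Over all protein-coding genes the second-pair and first-pair shares were 73.2% and 89.1% for G9a, and 52% and 64.7% for H3K9me2. The tables hold no levels, so the purity of the cells could not be read from them, and its part in the results was not tested. For G9a, the second pair's library 1 differed from the rest. Its values were 0 in 45 of the 217 regions at the 10 genes, against 2, 7 and 0 in the other 3 libraries, and over all G9a regions 9.34% of its values were 0.

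Regions of both directions were spread over most of these genes, and the G9a table reached nearly all of them. A G9a region higher in the second pair lay at 9 of 10 genes, all but Pdk4, where 73.2% of all protein-coding genes had one, and a region higher in the first pair lay at 10 of 10, against 89.1%. For H3K9me2 the counts were 4 of 10 for the second pair (Ppargc1a, Pparg, Esrrb and Esrrg), against 52% of all genes, and 7 of 10 for the first pair, against 64.7%. For H3K27me3 they were 7 of 10 for the second pair, against 69.7% of all genes, and 7 of 10 for the first, against 79.9%. With either direction, 10 of 10 genes had a G9a region (92.3% of all genes), 7 of 10 an H3K9me2 region (73.7%) and 8 of 10 an H3K27me3 region (84.7%). These shares are near the background, since most genes have a region within such a window. Ppara, the main PPAR of fatty acid oxidation, had no H3K9me2 and no H3K27me3 region at all.

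Per length of the summed windows, which Ppargc1a and Esrrg dominate, H3K27me3 regions were fewer than over all genes. The windows held 1.42 H3K27me3 regions per 100 kb that were higher in the second pair, against 8.75 over all protein-coding windows, and 2.41 higher in the first pair, against 9.26. For G9a the densities were 3.30 against 6.94 per 100 kb for the second pair and 6.94 against 8.56 for the first. For H3K9me2 they were 2.27 against 3.01 and 3.59 against 4.10. Single genes differed: for H3K27me3 regions higher in the second pair, Rxra had 11.2 and Esrra 6.44 per 100 kb, above the median gene at 4.90, while Ppargc1a had 1.17 and Esrrg 0.160. The windows of Ppargc1a and Esrrg, the longest of the set, supplied 122 of the 217 G9a regions, 100 of the 124 H3K9me2 regions and 44 of the 81 H3K27me3 regions.

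**Figure D1:**
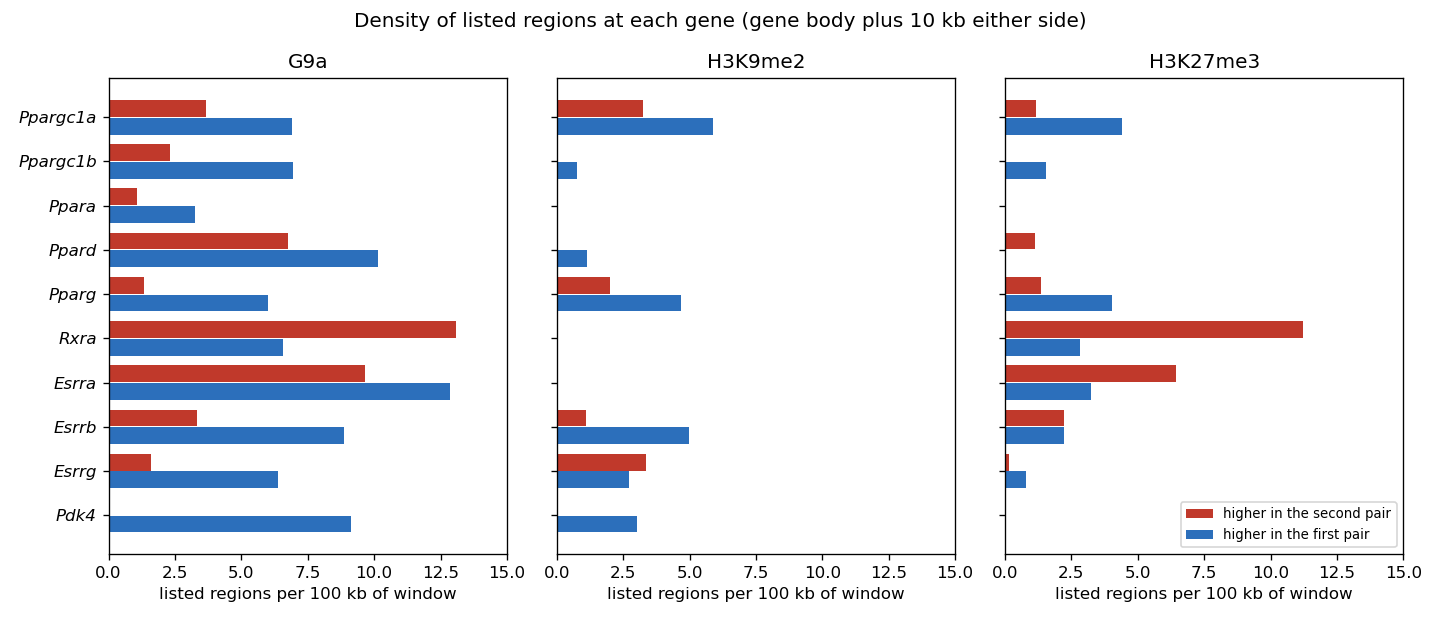
Listed regions per 100 kb of window (gene body plus 10 kb either side) at each gene, by antibody, with red bars for regions higher in the second pair and blue bars for those higher in the first. Rxra has 13.1 G9a and 11.2 H3K27me3 regions per 100 kb that are higher in the second pair and no H3K9me2 region, while Ppara has bars for G9a alone.

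The listed regions lay mostly away from the transcription starts that were available. RefSeq (GRCm38.p6) listed 16 starts for 9 of the genes; Ppargc1b is not included. Of the 250 bases before each of these starts, 1 window of 16 was overlapped by a region of any table, against 41% of all 32851 such windows. For H3K27me3 alone it was 0 of 16, against 32.1%, and for G9a 0 of 16, against 21.3%. Within 2500 bp of a start, 3 genes (Ppard, Rxra and Esrrg) had a G9a region higher in the second pair, where 33% of all 17492 genes with a listed start had one, and Esrra and Esrrg had one higher in the first pair (39.4%). For H3K9me2 it was 0 genes for the second pair (12.2%), with Pparg alone for the first (15.3%). For H3K27me3 it was Rxra and Esrrg for the second pair (38.2%), with Pparg and Esrrb for the first (32.3%). The 1 covered window was at the third start of Pparg, inside an H3K9me2 region. The listed starts leave out the distal annotated 5′ end of Ppargc1a at 52115853. An H3K27me3 region higher in the second pair ended 253 bp from it and is not counted here.

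Ppargc1a encodes PGC-1α, the coactivator that is induced by cold, fasting and exercise. The gene is annotated over 661.605 kb on the minus strand of chromosome 5 (51454249 to 52115853), with a distal 5′ end far upstream of its listed start at 51567725. From 10 kb beyond the 3′ gene end to 10 kb upstream of the listed start, a stretch of 133.477 kb, there were 0 H3K27me3 regions, 2 H3K9me2 regions and 6 G9a regions, all 8 higher in the first pair. The remaining 548.128 kb upstream of the listed start held 38 H3K27me3, 60 H3K9me2 and 66 G9a regions, in both directions. Per 100 kb, G9a regions numbered 12.0 upstream and 4.50 from the start on, and H3K9me2 regions 10.9 and 1.50.

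The H3K27me3 regions of Ppargc1a that were higher in the second pair gathered at the distal annotated end. Of 8 such regions, 7 lay within 50 kb of that end, together with 13 of the 30 regions that were higher in the first pair. The leading one (52112451 to 52115600), 3150 bp long, ended 253 bp inside the annotated gene end, and its edge nearest to the listed start lay 544.726 kb upstream of it. Its values were 1161 and 693 in the second pair, against 339 and 293 in the first pair, a log2 difference of 1.55 (deposited -log10 p of 67.4). A neighbour at 52109951 to 52111000 had 258 and 214 in the second pair, against 78 and 80 in the first pair (1.57). The values of the pairs did not overlap in either region. Further in, regions of the other direction were interspersed, such as 52101351 to 52103600 with 299 and 227 in the second pair, against 559 and 411 in the first pair (-0.88).

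H3K9me2 at Ppargc1a moved in both directions within the upstream stretch. The leading region higher in the second pair (51769151 to 51770450) had 328 and 298, against 112 and 41 in the first pair, and another at 51698151 to 51699200 had 233 and 282, against 109 and 5. The leading region of the other direction (51849401 to 51850400) had 27 and 63 in the second pair, against 174 and 244 in the first pair, a log2 difference of -2.19. In all 3 of these regions the pairs were separated. At the gene 22 H3K9me2 regions were higher in the second pair, 15 of them separated, and 40 were higher in the first pair, 32 of them separated.

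G9a regions of both directions lay along Ppargc1a. Within 50 kb of the distal end lay 4 of 25 higher in the second pair and 5 of 47 higher in the first. For H3K9me2 the counts there were 0 of 22 and 5 of 40. No background share was computed for this stretch. At 52094901 to 52095550 the values were 12 and 15 in the second pair, against 205 and 99 in the first pair, a log2 difference of -3.40. At 52082251 to 52083150 they were 238 and 193, against 28 and 106 (1.67), and that region shared 400 bp with an H3K27me3 region of the same direction. Counts at the gene were 25 G9a regions higher in the second pair, 15 separated, and 47 higher in the first pair, 31 separated.

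**Figure D2:**
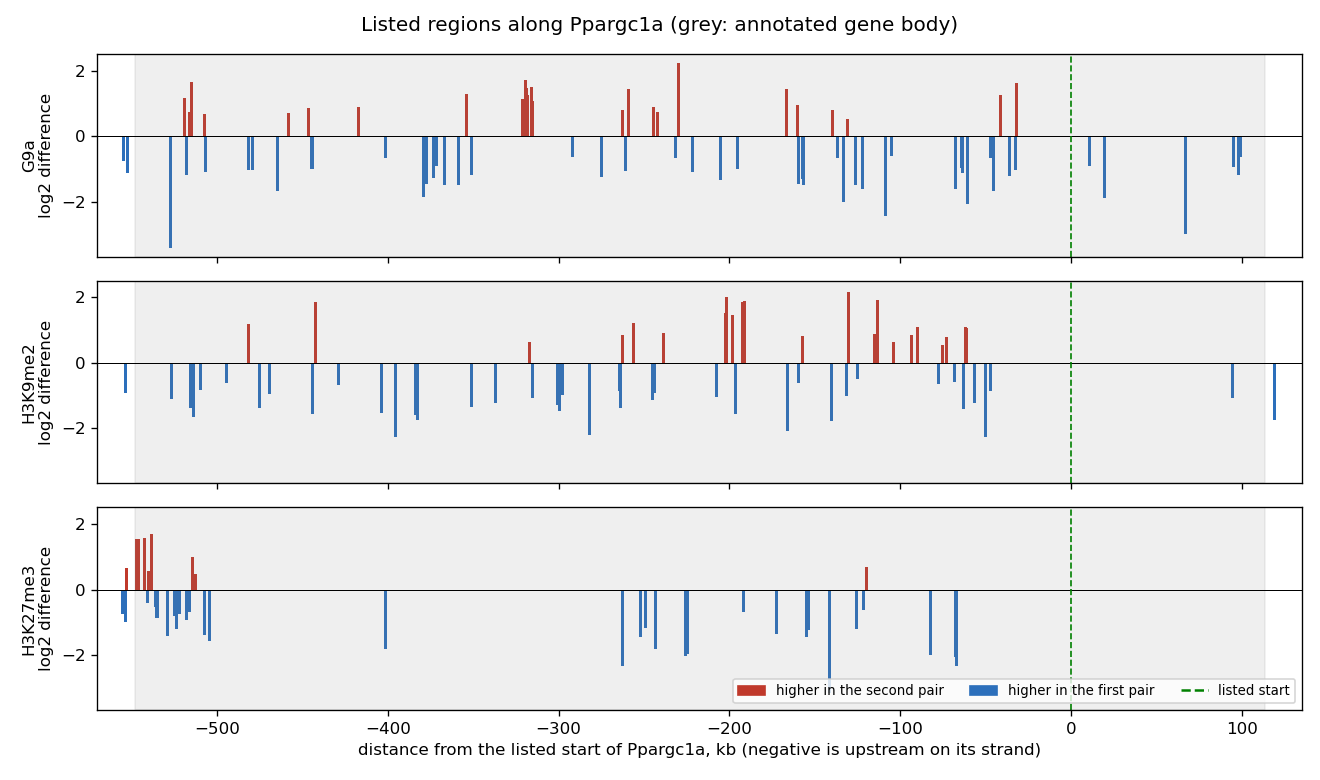
Listed regions along Ppargc1a for the 3 antibodies, by distance in kb from the listed start on the gene's strand, with bar height the log2 difference of the pair means (red, higher in the second pair; blue, higher in the first). From the listed start on, the H3K27me3 panel holds 0 regions, and 7 of its 8 red bars stand within 50 kb of the distal gene end.

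Ppargc1b, on chromosome 18 (61291445 to 61400756), encodes PGC-1β, which shares much of the targets of PGC-1α. Of its 12 G9a regions, 3 were higher in the second pair, while 9 went the other way. The leading region higher in the second pair (61398551 to 61398850) was short, at 300 bp, with values of 50 and 65, against 12 and 5 in the first pair. The gene for miR-378a (61397835 to 61397900), a microRNA hosted by Ppargc1b, lies beside it. In the other direction, 61355201 to 61355650 had 16 and 19 in the second pair, against 53 and 141 in the first pair (-2.41). Its single H3K9me2 region had 139 and 6 in the second pair, against 70 and 149 in the first pair, so the pairs overlapped widely.

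Among the PPARs, Ppara had few listed differences (chromosome 15, 85734910 to 85806851). Its 4 G9a regions included a neighbouring pair of opposite direction upstream of the gene. The first of them (85728801 to 85729450) had 65 and 149 in the second pair, against 28 and 99 in the first pair, and the adjoining one (85729451 to 85730350) had 37 and 144, against 165 and 165. The adjoining region was separated and the other was not.

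Ppard encodes PPARδ, a fatty acid sensor expressed in many tissues including heart and skeletal muscle (chromosome 17, 28232754 to 28301469). Its 1 H3K27me3 region was broad, 5350 bp (28219951 to 28225300), and lay 7.454 kb upstream of the start, within the body of the neighbouring gene Def6. It had 1945 and 1949 in the second pair, against 1089 and 803 in the first pair (log2 1.04; deposited -log10 p of 76.0). The Ppard body held 0 H3K27me3 regions. G9a had 6 regions higher in the second pair, 1 of them separated, and 9 higher in the first pair, 6 of them separated. The nearest to the start (28232851 to 28233150, 97 bp downstream of it) had 24 and 77 in the second pair, against 15 and 28 in the first pair, with overlapping values. The strongest of the other direction (28265551 to 28266000) had 0 and 23 in the second pair, against 111 and 107 in the first pair.

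Pparg encodes PPARγ, the regulator of fat cell formation, which has alternative promoters (chromosome 6, 115360879 to 115490404, plus strand). Its first listed start is preceded by CpG-rich sequence and the third, at 115422066, is not. The 250 bases before these starts are shown because the third window is the only one of the 16 that any listed region covers; capitals mark CpG dinucleotides (RefSeq, GRCm38.p6, 5′ to 3′).
Pparg first start, chr6:115360894-115361143, plus strand: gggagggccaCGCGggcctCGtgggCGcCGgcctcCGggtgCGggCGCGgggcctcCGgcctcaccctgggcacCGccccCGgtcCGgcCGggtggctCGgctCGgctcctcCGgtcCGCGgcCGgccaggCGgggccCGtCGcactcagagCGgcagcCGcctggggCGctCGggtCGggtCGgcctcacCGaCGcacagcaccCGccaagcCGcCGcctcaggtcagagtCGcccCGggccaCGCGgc
Pparg start at 115422066, chr6:115421816-115422065, plus strand: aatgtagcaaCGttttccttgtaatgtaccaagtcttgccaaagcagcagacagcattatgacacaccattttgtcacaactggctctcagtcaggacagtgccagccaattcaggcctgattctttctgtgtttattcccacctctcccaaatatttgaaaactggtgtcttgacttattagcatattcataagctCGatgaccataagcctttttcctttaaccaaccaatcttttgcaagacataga
The first window holds 38 CpG and the third 2, against a median of 6 in all 32851 windows. The H3K9me2 region over the third start (115421801 to 115422300) had 17 and 45 in the second pair, against 70 and 101 in the first pair, a log2 difference of -1.43 (deposited -log10 p of 5.95), with the pairs separated.

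The letters AGGTCA, the core site read by these nuclear receptors, were searched on both strands of each 250-base window. They stood in 3 of the 16 windows, at the first and second starts of Pparg and the second start of Rxra, against 14% of all windows. The direct repeat of that site with 1 base between the copies, the PPAR and RXR element, was in 0 of 16 windows and 0.0335% of all. The longer form NAAGGTCA, which contains the core site, was in 1 of 16, the second start of Rxra, and 4.07% of all, and TGACGTCA in 0 of 16 and 1.55%.

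H3K27me3 around Pparg was mixed just upstream of the first start. The region from 115358101 to 115358650, 2.494 kb upstream, had 0 and 23 in the second pair, against 103 and 138 in the first pair (-3.28). A few kb further out, 115352801 to 115353850 had 333 and 314 in the second pair, against 206 and 228 in the first pair (0.57). Both were separated. Within the gene, 115457951 to 115458300 was listed at 0 in both second-pair libraries, with 62 and 96 in the first pair, so no fold is given. H3K9me2 had 3 regions higher in the second pair, while 7 went the other way, with the lowest deposited p at 115456151 to 115456750 (0 and 54, against 76 and 178). G9a had 2 and 9 regions. Neither of the 2 higher in the second pair was separated, and 7 of the 9 higher in the first pair were.

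Rxra encodes RXRα, the shared partner of the PPARs and of many other receptors (chromosome 2, 27676445 to 27763319). It was the gene of the set with the most H3K27me3 regions higher in the second pair, 12, of which 10 were separated, and it had 3 in the other direction. They flanked the gene on both sides and 7 overlapped its body. Upstream, 27672751 to 27675000 had 768 and 624 in the second pair, against 246 and 238 in the first pair (log2 1.52; deposited -log10 p of 49.3). It ended 2.201 kb before the first listed start. Inside the gene, 27694351 to 27697750 had 1083 and 803, against 502 and 269 (1.29). Beyond the gene end, 27765651 to 27770450 had 2686 and 2779, against 1361 and 1622 (0.87). In these 3 regions both second-pair libraries lay above both first-pair libraries.

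G9a at Rxra was likewise mostly higher in the second pair, in 14 regions against 7 in the other direction. Of the 14, 6 were separated. At 27670101 to 27672650, upstream, the values were 1005 and 435 in the second pair, against 249 and 381 in the first pair (1.19). At 27767201 to 27769900, beyond the gene end, they were 702 and 645, against 292 and 324 (1.13). The broadest, 27770201 to 27776200, had 2434 and 1180, against 623 and 1194, so its pairs overlapped, with library 2 of the second pair just under the higher first-pair library. Rxra had no H3K9me2 region. The 250 bases before its first start, shown because they follow these upstream regions yet are covered by none, hold 40 CpG, in capitals.
Rxra first start, chr2:27676951-27677200, plus strand: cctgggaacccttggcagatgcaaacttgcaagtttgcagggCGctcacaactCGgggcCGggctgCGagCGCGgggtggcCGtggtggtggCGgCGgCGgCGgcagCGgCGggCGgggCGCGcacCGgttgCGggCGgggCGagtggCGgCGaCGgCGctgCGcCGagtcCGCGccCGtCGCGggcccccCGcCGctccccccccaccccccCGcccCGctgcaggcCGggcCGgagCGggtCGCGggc

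**Figure D3:**
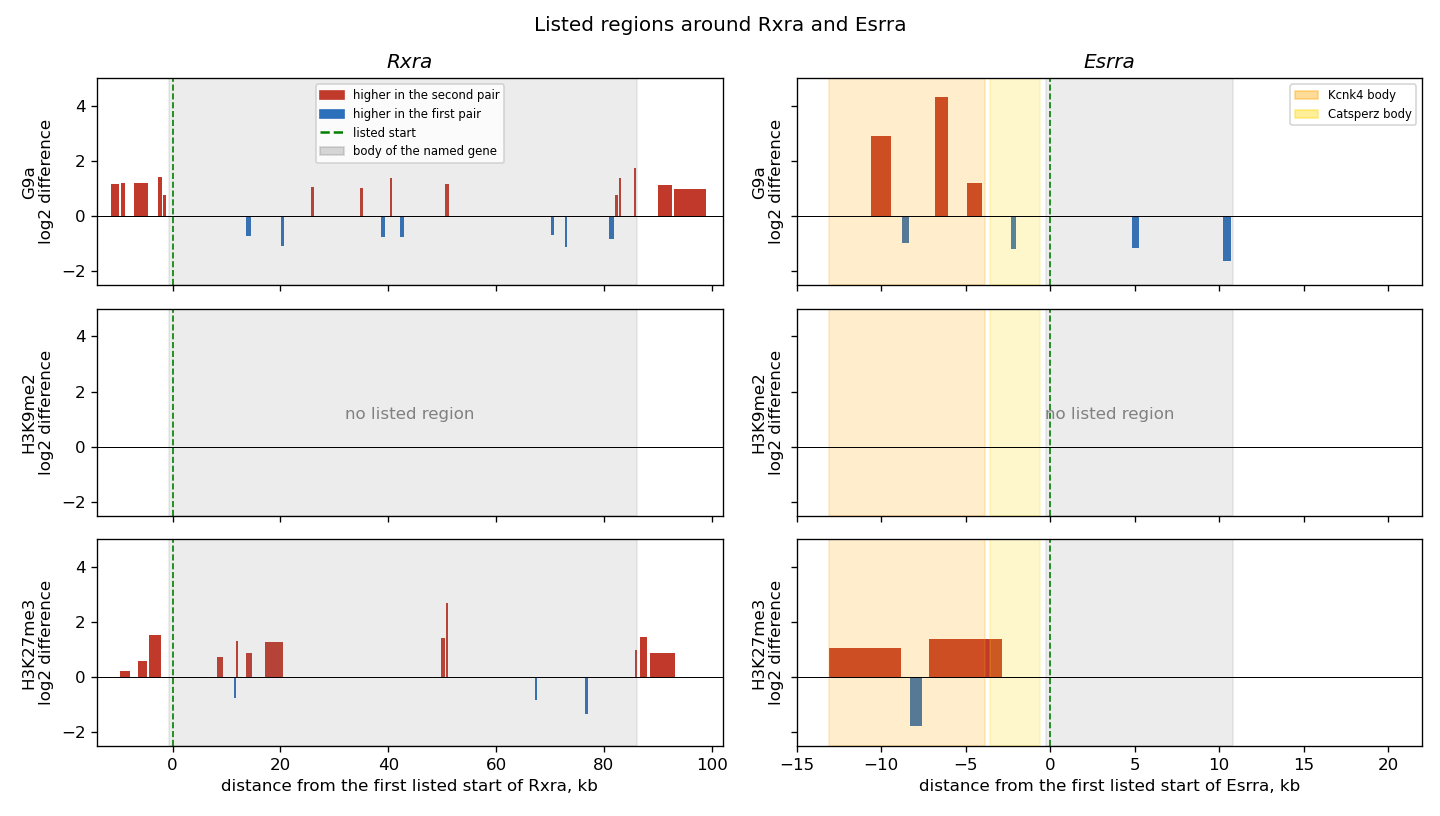
Listed regions around Rxra and Esrra for the 3 antibodies, by distance in kb along the gene's strand from the first listed start (dashed), with bar height the log2 difference of the pair means. Red bars, higher in the second pair, flank Rxra on both sides, and at Esrra the 2 red H3K27me3 bars stand over Kcnk4 and Catsperz rather than over Esrra.

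Esrra encodes ERRα, which is activated by PGC-1α and controls genes of oxidative phosphorylation (chromosome 19, 6910977 to 6922048, minus strand). Its window held the H3K27me3 region of smallest deposited p of the set, upstream of the gene, though others differed more in size, such as one at Rxra with a log2 difference of 2.70. The region from 6924651 to 6928950 had 1735 and 1537 in the second pair, against 713 and 535 in the first pair, a log2 difference of 1.39 (deposited -log10 p of 101). It began 2.843 kb upstream of the start and overlapped the neighbours Catsperz and Kcnk4, a potassium channel gene. A second broad region at 6930651 to 6934900 had 1775 and 1534 in the second pair, against 934 and 638 in the first pair (1.07). Between them, 6929401 to 6930100 went the other way, with 65 and 24 in the second pair, against 206 and 100 in the first pair (-1.76). The Esrra body itself held 0 H3K27me3 regions.

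At Esrra, all 3 G9a regions of that direction, higher in the second pair, lay within these H3K27me3 regions and were separated. The strongest by deposited p, 6931201 to 6932400, had 309 and 300 in the second pair, against 20 and 59 in the first pair (2.92). At 6927851 to 6928600 the values were 46 and 313, against 1 and 15, so library 2 of the second pair carried most of the difference. Inside the gene body G9a was higher in the first pair, at 6911101 to 6911600 with 5 and 57 in the second pair, against 126 and 70 in the first pair, and at 6916551 to 6916950 with 0 and 61, against 60 and 78. At 6916551 the pairs overlapped. Esrra had no H3K9me2 region.

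Esrrb encodes ERRβ, known mainly from pluripotent cells and the inner ear (chromosome 12, 86361117 to 86521628). G9a had 6 regions higher in the second pair, 3 of them separated, while 16 went the other way, 7 of them separated. H3K9me2 had 2 and 9, of which 2 and 6 were separated. The H3K9me2 region with the smallest p of all those at the 10 genes lay here, at 86445051 to 86445700, where the second pair had values of 0 and 1 and the first pair 103 and 204 (deposited -log10 p of 43.1). H3K27me3 regions stood outside both gene ends, with 1 in the gene body. The leading one, 86530351 to 86531800, had 319 and 298 in the second pair, against 123 and 152 in the first pair (1.16), and it adjoined a region of the other direction with 86 and 32, against 185 and 123 (-1.37).

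Esrrg encodes ERRγ, which is abundant in heart and drives the switch to oxidative metabolism after birth (chromosome 1, 187608510 to 188214885). H3K27me3 was listed at only 6 places in its 626.376 kb window, 1 of them higher in the second pair. Close to the first start, G9a and H3K27me3 regions of the same direction overlapped. The G9a region (187606451 to 187607500, 1.506 kb upstream) had 322 and 165 in the second pair, against 57 and 133 in the first pair (1.35). The H3K27me3 region (187606951 to 187607450) had 64 and 138, against 66 and 21 (1.20), and its pairs overlapped. Over the whole Esrrg window 40 of 50 G9a regions were higher in the first pair, but only 17 of the 40 were separated. Of the 10 higher in the second pair, 3 were separated. The leading first-pair region, 187726701 to 187727600, was separated, with 0 and 69 in the second pair, against 184 and 202 in the first pair (-2.45).

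H3K9me2 at Esrrg had slightly more regions higher in the second pair than in the first, 21 and 17. Over the whole H3K9me2 table, 44.4% of regions were higher in the second pair. At 187886501 to 187886950 the values were 86 and 105 in the second pair, against 19 and 12 in the first pair (2.55). At 187801151 to 187801550 they were 98 and 62, against 21 and 0 (2.82). In the other direction, 188031151 to 188031950 had 86 and 4 in the second pair, against 225 and 134 in the first pair (-1.97). These 3 regions were separated.

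Pdk4 encodes the kinase that shuts pyruvate dehydrogenase and is a classic PPAR target (chromosome 6, 5483351 to 5496278). It had 3 G9a regions and 1 H3K9me2 region, all higher in the first pair and all separated. Within the gene, 5486201 to 5486550 was listed at 0 for G9a in both second-pair libraries, with 45 and 110 in the first pair. The H3K9me2 region, beyond the 3′ end (5475051 to 5475600), had 60 and 15 in the second pair, against 95 and 109 in the first pair (-1.42). Pdk4 had no H3K27me3 region.

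**Figure D4:**
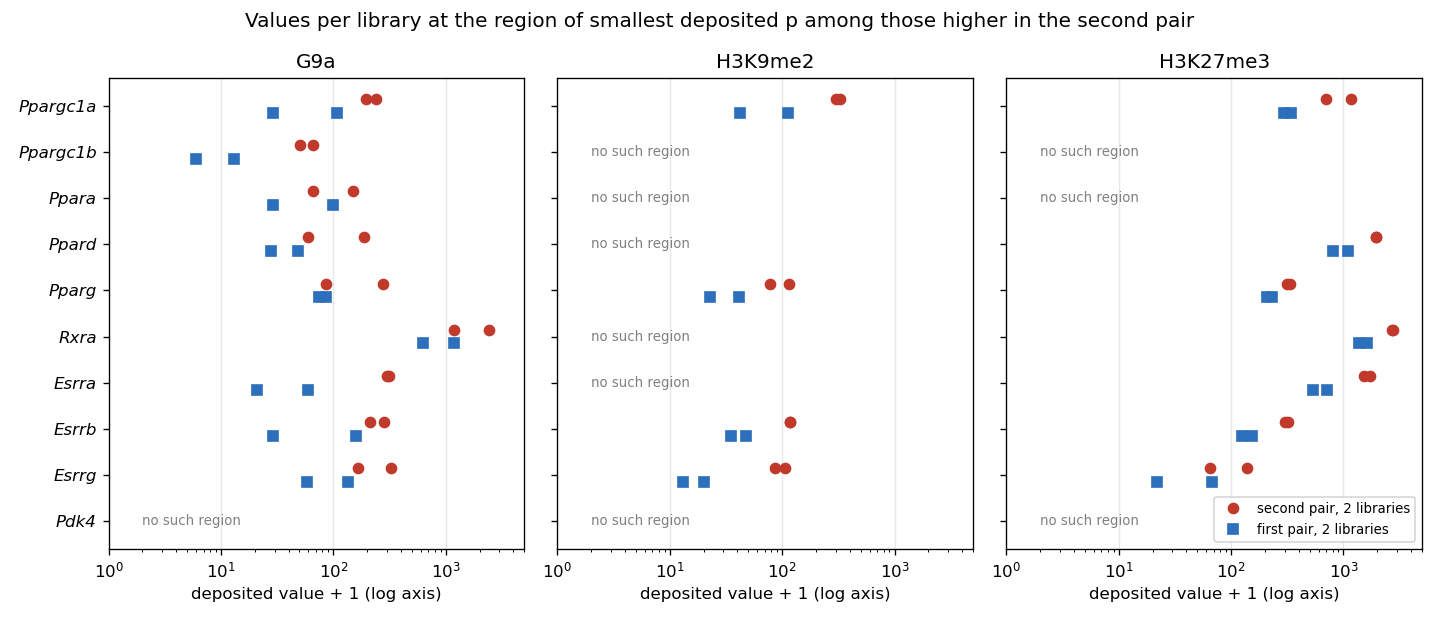
Deposited values plus 1, on a log axis, of the 2 second-pair libraries (red circles) and the 2 first-pair libraries (blue squares) at each gene's region of smallest deposited p among those higher in the second pair. The H3K27me3 pairs do not overlap at 6 of the 7 genes with such a region, Esrrg being the exception, while the G9a pairs overlap at Ppara, Pparg and Rxra.

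G9a and H3K27me3 regions higher in the second pair met at 7 of the 10 genes, the same 7 that had such an H3K27me3 region. No share over all genes was computed for this count. The shared stretches lay outside the gene body at Esrra (over Kcnk4), Esrrb, Esrrg, Ppard (over Def6) and Pparg. Only Ppargc1a and Rxra had any inside the body. Of the 70 G9a regions, 16 overlapped one of the 30 H3K27me3 regions (22.9%), and 14 of the 30 overlapped a G9a region (46.7%). Over the whole tables these shares were 52.3% and 30.8%. Rxra held 7 of the 16 G9a regions and Esrra 3. With the pairs turned for one table, second-pair G9a regions met first-pair H3K27me3 regions in 5 of 70 (7.14%) and 5 of 51 (9.80%) cases, at Pparg and Ppargc1a, where the whole tables gave 23.2% and 12.4%. H3K9me2 and H3K27me3 regions higher in the second pair did not meet at any of the 10 genes (0 of 48 and 0 of 30), while genome-wide shares of 28.5% and 12.6% did. Those of the first pair met in 6 of 76 and 6 of 51 cases, at Esrrg and Ppargc1a (32.5% and 14.0% in the whole tables). With the pairs turned, second-pair H3K9me2 regions met first-pair H3K27me3 regions in 2 of 48 and 2 of 51 cases (27.9% and 9.72%), and first-pair H3K9me2 regions met second-pair H3K27me3 regions in 2 of 76 and 2 of 30 (22.8% and 12.8%). Second-pair G9a and H3K9me2 regions met in 4 of 70 and 4 of 48 cases (10.9% and 17.3%). First-pair ones met in 11 of 147 and 11 of 76 (12.2% and 19.1%). Second-pair G9a met first-pair H3K9me2 in 6 of 70 and 6 of 76 (9.97% and 12.6%). First-pair G9a met second-pair H3K9me2 in 7 of 147 and 7 of 48 (8.04% and 15.8%). First-pair G9a met first-pair H3K27me3 in 7 of 147 and 8 of 51 (26.1% and 17.6%). With second-pair H3K27me3 it was 3 of 147 and 3 of 30 (23.4% and 20.2%). The 3 antibodies were profiled in separate libraries, and these overlaps are given as description.

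At the 10 genes 32.3% of G9a, 38.7% of H3K9me2 and 37.0% of H3K27me3 regions were higher in the second pair, against 44.5%, 44.4% and 42.7% of all regions. At the same genes 32 of 70 G9a regions higher in the second pair were separated, against 63.1% of all such regions, and 80 of 147 of those higher in the first pair, against 59.8%. For H3K9me2 the counts were 36 of 48 (66.3% of all) and 58 of 76 (69.2%), and for H3K27me3 21 of 30 (71.4%) and 35 of 51 (67.6%). Over both directions the separated shares were 61.3%, 67.9% and 69.2% of all regions. Without library 1 of the second pair 120 of the 147 G9a regions higher in the first pair kept their direction (81.6%, against 90.1% of all such regions). Without library 2 of that pair 55 of the 70 higher in the second did (78.6%, against 89.6%). The median log2 difference of regions at the 10 genes was 1.15 for second-pair and -1.13 for first-pair G9a regions, against 1.01 and -1.08 in the whole table. For H3K9me2 it was 1.11 and -1.13, against 0.97 and -1.02, and for H3K27me3 1.00 and -1.36, against 0.84 and -0.98.

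For a single region, 2 against 2 libraries leave a two-sided exact permutation test no p below 0.333. limma on log2(value + 1), fitted on every region of a table, called 0 of 217 G9a, 0 of 124 H3K9me2 and 0 of 81 H3K27me3 regions at the 10 genes at an adjusted p of 0.05. It also called 0% of all regions in each table. At an unadjusted limma p of 0.05, 13, 13 and 16 of these regions passed, against 3.94%, 8.75% and 12.3% of all regions. The smallest limma adjusted p at the 10 genes was 0.11, at the Pparg H3K27me3 region listed at 0 in both second-pair libraries. The calls above are therefore the authors' own, from their deposited p, and limma did not call them.

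Of 50 genes that act with or downstream of these regulators, 42 had a G9a region higher in the second pair and 49 one higher in the first pair (73.2% and 89.1% of all genes). For H3K9me2 there were 24 and 25 of 50 (52% and 64.7%), and for H3K27me3 25 and 30 of 50 (69.7% and 79.9%). Among the 23 PPAR and PGC-1 target genes the counts were 20 and 22 for G9a, 7 and 8 for H3K9me2, and 11 and 10 for H3K27me3. The 19 cofactors and regulators had 17 and 19, 13 and 12, and 10 and 13. The 8 genes listed under mitochondrial biogenesis had 5 and 8, 4 and 5, and 4 and 7. They were Nrf1, Gabpa, Tfam, Tfb1m, Tfb2m, Yy1, Ppif and Polg, and the heading is loose, since it takes in Ppif.

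The H3K27me3 regions of this list with the smallest deposited p were higher in the second pair at Acadvl, an acyl-CoA dehydrogenase, and at Tfam, which packages mitochondrial DNA. Acadvl had 5010 and 4572, against 2574 and 2825 in the first pair (0.83), and Tfam 1787 and 2097, against 861 and 710 (1.30). In the other direction they were at the deacetylase gene Hdac5 (66 and 78, against 469 and 257) and at Angptl4, an inhibitor of lipoprotein lipase (26 and 0, against 244 and 169). All 4 of these regions lay outside the body of the gene named, within 10 kb of it.

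For H3K9me2, Ncoa1, a nuclear receptor coactivator, had 265 and 933 in the second pair, against 82 and 104 in the first pair (2.67), and Rxrb 278 and 204, against 82 and 82 (1.54). A nearby Rxrb region of smaller deposited p went the other way, with 99 and 161 in the second pair, against 386 and 442 in the first pair (-1.66); it was chosen after its values were seen. In the other direction Klf15, a metabolic transcription factor of heart muscle, had 48 and 34 in the second pair, against 281 and 205 in the first pair (-2.54), and the lipid droplet gene Plin2 had 58 and 60, against 187 and 377 (-2.24). For G9a, Mlycd, which encodes malonyl-CoA decarboxylase, had 1195 and 569 in the second pair, against 382 and 239 in the first pair (1.50). Hdac4 had 14 and 100, against 322 and 272 (-2.36), and the acetyltransferase gene Crebbp 0 and 18, against 196 and 121 (-4.00). The pairs were separated in all 8 of these H3K9me2 and G9a regions. The Mlycd region and both Rxrb regions lay outside the body of the gene named, within 10 kb of it.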

How the data were processed

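Chromatin of cardiomyocyte-enriched cells was immunoprecipitated and sequenced, with libraries made by the NuGEN Ovation Ultralow V2 kit, per the labels' protocols. Per the submitters' processing notes, the tools were BWA 0.7.10-r789 and SAMtools 1.1. The authors deposited 1 table of differential regions per antibody, and nothing used here names the caller, its scaling, its input correction or the sequencing depth. Column 11 holds 4 whole-number values (unit: other) and a -log10 p, per the deposited files. With no stated scaling they were not taken as counts and no count model was run, and the 2 input libraries have no values there.

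Genes came from RefSeq GRCm38.p6. Regions were matched by 1 bp of overlap. All 50 pathway symbols and all 22 markers matched. The genes, lists and tests were chosen with earlier results of these data known. limma 3.58.1 (R 4.3.3) compared the pairs over all regions of a table, with Benjamini-Hochberg adjustment. The code was also run on simulated data with large changes and a spread set in advance, not taken from these libraries. That run does not show what limma could detect at the spread seen here. The limma p-values measure the spread between 2 libraries per pair. Nothing used here says what spread the deposited p-values measure. At the broadest Rxra G9a region, whose pairs overlapped, the deposited -log10 p was 64.3 and the limma p 0.30. Named genes are all 10, with their regions of smallest deposited p per table and direction, and the 2 leading pathway genes per table and direction, 1 of which is not reported here; other regions at the 10 genes were picked after their values were seen.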

Additional observations from a re-analysis of the deposited data

How the results depend on the processing

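The counts of genes with a region kept within 1.5 times of their values when regions were matched by midpoint, at a deposited -log10 p of at least 5, and with separated regions alone. Within 2500 bp of a listed start they were 3 of 10 genes (second pair) and 2 (first pair) for G9a, 0 and 1 for H3K9me2, and 2 and 2 for H3K27me3. Ppargc1b and the distal 5′ end of Ppargc1a were not included in these. With a mean value of at least 100, H3K9me2 regions remained at 2 (second pair) and 3 (first pair) genes, and with 50000 bp either side H3K9me2 regions higher in the second pair reached 7. In gene bodies alone, H3K27me3 regions higher in the second pair lay at 2 genes, Ppargc1a and Rxra, and the pathway counts were 19 (G9a, second pair), 14 and 16 (H3K9me2, second and first pair) and 5 and 9 (H3K27me3, second and first pair). A window from the outermost listed start, chosen after seeing the data, left 64 H3K9me2 and 42 H3K27me3 regions.

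With single libraries left out, regions were not called anew and only their direction was taken afresh, so the gene counts had little room to change. Leaving out single libraries gave 9 to 9 (second pair) and 10 to 10 genes (first pair) for G9a, 4 to 5 and 6 to 7 for H3K9me2, and 7 to 8 and 7 to 7 for H3K27me3. limma called between 0 and 56 of the G9a regions in these fits, 56 without library 2 of the second pair, when 14.5% of all G9a regions were called and the lone library 1 was assumed to vary like the first pair. It called 0 for either mark. Of 44 leading regions, all kept their direction with equal library medians, which moved the median log2 difference of all regions by 0.29, 0.17 and 0.29. A pseudocount of 10 cannot change a direction, so that setting bears on size alone. Over all settings, the leading differences moved by at least the spread within pairs in 46 cases, reversed in 3 and stayed in 215. At Ppargc1b the H3K9me2 difference reversed to 0.34 without library 2 of the second pair and to 0.05 without library 2 of the first pair, its values over single omissions running from -3.98 to 0.34, and at Esrrg the leading first-pair H3K27me3 difference reversed to 0.10 without library 1 of the first pair, in a range of -2.85 to 0.10. The cause of these changes was not tested. No paired analysis was possible because the values carry no replicate numbers.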
